A study of Homo sapiens with 6 samples.

Results

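Transcripts of beta-catenin (CTNNB1) and of 9 genes of the machinery that destroys it or blocks its destruction were followed on 6 Affymetrix HG-U133 Plus 2.0 arrays. The genes were CTNNB1, APC, AXIN1, CSNK1A1, GSK3A, GSK3B, BTRC, FBXW11, DVL2 and DVL3, found by their symbols. They were chosen for their roles in the pathway with earlier results of these data known. The platform annotation assigned 40 of the 54613 probe sets to exactly 1 of these 10 genes. A probe set is a group of short probes read together as 1 signal for 1 or more transcripts, and a gene can have several probe sets.

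The arrays came from cells labelled HepG2, a line derived from a human liver tumour. On 3 arrays the cells had been transfected with an siRNA against RNF43, and on the other 3 with a negative control siRNA. All cells received an siRNA with the same lipid reagent, and total RNA was taken 48 h later. The labels call the 3 arrays of a group biological replicates without saying whether each was a separate culture. The p-values therefore reflect only the scatter among these arrays, which may be technical.

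RNF43 encodes a ubiquitin ligase that clears Frizzled, the Wnt receptor, from the plasma membrane. Without a Wnt signal, beta-catenin in the cytoplasm is held by a complex built on the scaffolds APC and axin. Casein kinase 1 alpha and then glycogen synthase kinase 3 phosphorylate it there, the F-box proteins encoded by BTRC and FBXW11 recognise the phosphorylated form, and the proteasome degrades it. When Wnt binds its receptors, Dishevelled proteins draw axin to the membrane, and beta-catenin accumulates and enters the nucleus. This regulation acts mainly on the beta-catenin protein, which the arrays do not measure. HepG2 is known for a CTNNB1 allele that lacks the phosphorylation sites beside an intact one, and whether the cells used here carried it was not examined.

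The siRNAs are shown because the whole comparison rests on them. They are written 5′ to 3′ as the labels give them, and each strand ends in a pair of unpaired thymines. The seed of the antisense strand (bases 2 to 8, the part that pairs first with a target RNA) is in capitals.
RNF43 siRNA, sense: cagaacagaaagcuauuautt
RNF43 siRNA, antisense: aUAAUAGCuuucuguucugtt
Negative control siRNA, sense: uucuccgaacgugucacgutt
Negative control siRNA, antisense: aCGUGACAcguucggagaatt
Where these match in transcripts was not analysed here.

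RNF43 went against its label. Its single probe set, 218704_at, had log2 signals of 8.19, 8.22 and 8.41 on the arrays labelled RNF43 siRNA, against 7.65, 7.79 and 7.45 on the control arrays. The groups did not overlap, and RNF43 was 1.56-fold higher on the arrays labelled with its own siRNA (log2 difference 0.64, SE 0.15, limma adjusted p = 0.0188; exact two-sided permutation p = 0.1, the smallest that 3 against 3 arrays allow). The call was lost without RNF43 siRNA replicate 2 (adjusted p = 0.0584), without RNF43 siRNA replicate 3 (adjusted p = 0.0575), without control siRNA replicate 1 (adjusted p = 0.0575) and without both arrays numbered 3 (adjusted p = 0.0673). Directions below therefore compare the labels of the arrays, since no loss of RNF43 mRNA was measured. Whether the labels of the groups were exchanged, which would turn every sign, was not tested.

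The labelled cell type was also checked against marker genes. Of 10 hepatocyte markers, 9 lay below the low-value filter (a mean log2 signal of 5.83), and ALB, which encodes albumin and is a defining product of HepG2, read 4.31, 4.23 and 4.17 on the RNF43 siRNA arrays and 4.31, 4.43 and 3.82 on the control arrays. AFP, the alpha-fetoprotein gene, was the exception above the filter, at 6.12 to 6.65 on RNF43 siRNA arrays and 6.91 to 7.13 on control arrays (adjusted p = 0.107). No array thus gave a clear hepatocyte signal, and single values of the 9 markers below the filter reached at most 6.58. Of 8 fibroblast or stellate cell markers, 6 were tested and 4 of these fell at a limma adjusted p under 0.05 (COL3A1, ACTA2, FAP and DCN). Among all 11853 genes tested on their brightest probe sets, 9.42% fell at this threshold. The summed linear signal of all 8 markers, of which LUM was the brightest, was 12470 to 13560 on RNF43 siRNA arrays and 15870 to 15980 on control arrays. The fibroblast markers LUM and COL1A1 did not pass but were bright on every array, at 13.07 to 13.29 and 10.27 to 10.56 on RNF43 siRNA arrays and at 13.32 to 13.43 and 10.48 to 10.73 on control arrays. The fibroblast or stellate markers COL1A2 and PDGFRB lay below the filter and were not tested. COL1A2 averaged 5.37 ± 0.76 on RNF43 siRNA arrays and 4.64 ± 1.99 on control arrays (SD, n = 3 each). PDGFRB averaged 3.24 ± 0.60 on RNF43 siRNA arrays and 4.84 ± 0.75 on control arrays (SD, n = 3 each). The list was thus not bright throughout. Whether the cells were HepG2, and the part of these markers in the results below, was not tested. Summed signals of endothelial markers were 194 to 238 on RNF43 siRNA arrays and 172 to 190.0 on control arrays, with 1 of 5 markers above the filter, and those of the 4 immune markers read here were 58.9 to 168 on RNF43 siRNA arrays and 83.7 to 117 on control arrays, with 0 above it. In bulk RNA, fewer cells of a type and less RNA per cell cannot be told apart.

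Of the 40 probe sets of the 10 genes, 32 passed the filter, and every gene kept at least 1. Only 1 of the 32 changed: the brightest probe set of BTRC, which was higher on RNF43 siRNA arrays. The other 31, among them every probe set of CTNNB1, APC, AXIN1, GSK3A, GSK3B, CSNK1A1, FBXW11, DVL2 and DVL3, did not pass (limma, adjusted p under 0.05 over all 27306 tested probe sets). In the background of all tested probe sets 15.5% changed, 7.9% higher and 7.55% lower, against 3.12% here. At an unadjusted p under 0.05, 6 of the 32 passed, 2 of them higher, where 28.9% of all tested probe sets did in either direction. Of all 27306, 3961 passed in this way and were higher on RNF43 siRNA arrays. The groups did not overlap for 7 of the 32, with 4 above and 3 below, against 33.8% of all tested probe sets. Of the 10 brightest probe sets, 2 passed at an unadjusted p under 0.05 (33.6% of all 11853 genes on their brightest probe sets), and the same 2, of BTRC and FBXW11, did not overlap between the groups (38.9% of those genes). The median size of the log2 difference, sign aside, was 0.17 over the 32 and 0.21 over all tested probe sets.

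**Figure D1:**
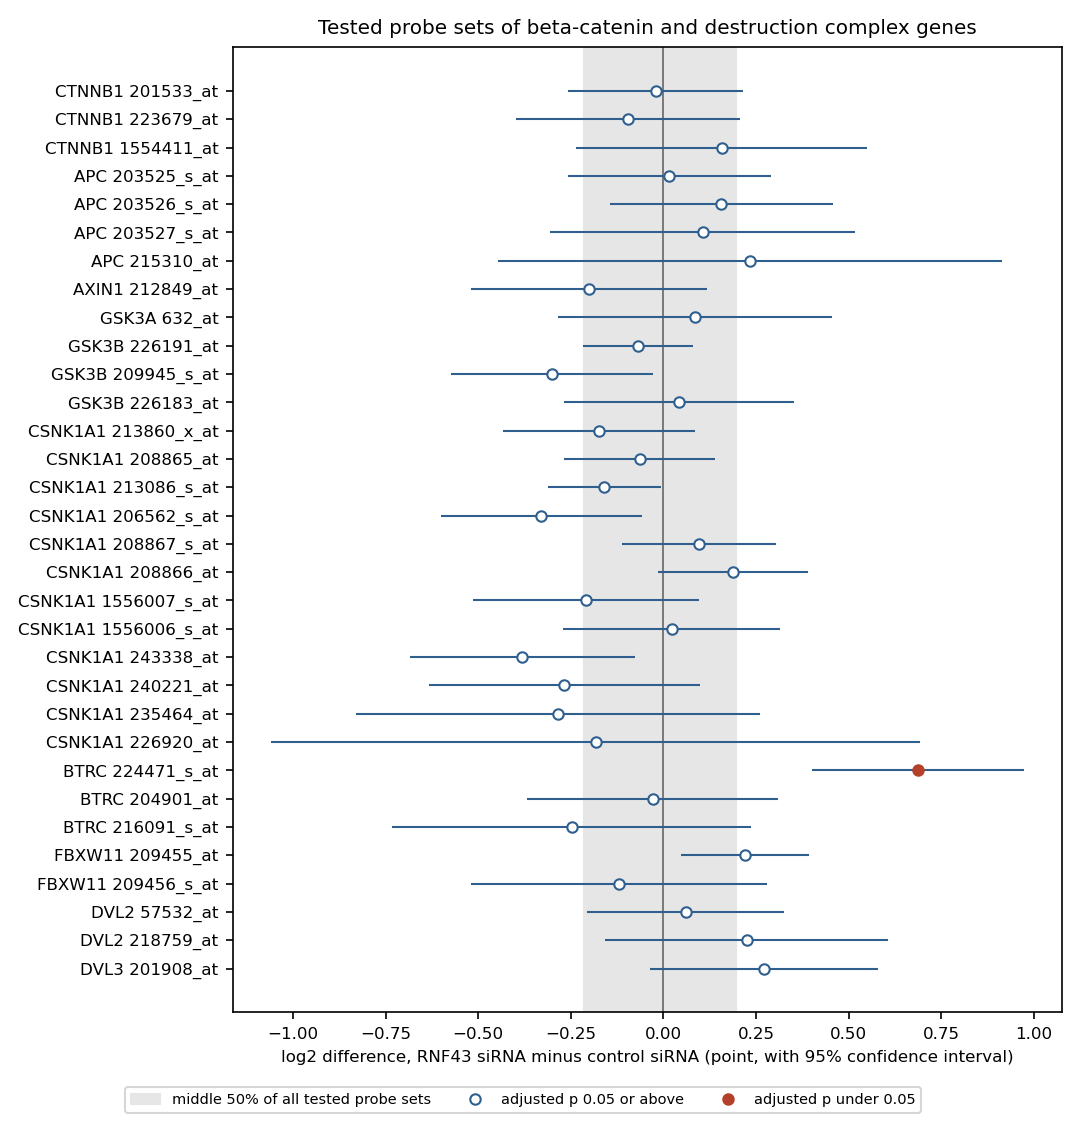
Log2 differences (RNF43 siRNA minus control siRNA, horizontal axis) of the 32 tested probe sets, grouped by gene with the brightest on top, with 95% confidence intervals from limma. The filled point is BTRC 224471_s_at at 0.69; the open points lie between -0.38 and 0.27, and the grey band from -0.22 to 0.20 holds the middle 50% of all tested probe sets.

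Beta-catenin mRNA itself gave strong and even signals. The brightest CTNNB1 probe set, 201533_at, read 13.46, 13.35 and 13.09 on RNF43 siRNA arrays and 13.48, 13.30 and 13.19 on control arrays. The groups overlapped almost completely, and in both the array numbered 3 was lowest. Its log2 difference was -0.02 (SE 0.10, adjusted p = 0.926), and the 95% confidence interval ran from 0.84-fold to 1.16-fold. The dimmer 223679_at averaged 8.88 ± 0.23 on RNF43 siRNA arrays and 8.98 ± 0.11 on control arrays, and 1554411_at averaged 8.43 ± 0.33 on RNF43 siRNA arrays and 8.27 ± 0.14 on control arrays (SD, n = 3 each). Their log2 differences were -0.10 and 0.16, with adjusted p = 0.694 and 0.61. The 3 probe sets differed in sign, and none passed.

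APC, the large scaffold that is lost in many colorectal tumours, was read by 5 probe sets, of which 4 were tested. The brightest, 203525_s_at, read 10.04, 10.46 and 10.40 on RNF43 siRNA arrays and 10.25, 10.17 and 10.42 on control arrays, a log2 difference of 0.02 (SE 0.12, adjusted p = 0.95). RNF43 siRNA replicate 1 was the lowest of the 6 arrays and the groups overlapped. The other 3 tested probe sets had differences of 0.11 to 0.23 with adjusted p of 0.493 to 0.757, and none passed. Leaving out 1 array turned the sign of 203525_s_at (-0.06 without RNF43 siRNA replicate 2) and of 215310_at (-0.04 without control siRNA replicate 3), and the untested probe set, 216933_x_at, differed by -0.81.

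AXIN1, the scaffold whose amount is thought to limit the complex, had 1 probe set, 212849_at. It read 7.83, 7.97 and 8.01 on RNF43 siRNA arrays and 8.14, 7.97 and 8.31 on control arrays. The groups overlapped at control replicate 2, the log2 difference was -0.20 (SE 0.14), and it did not pass (adjusted p = 0.398). The interval ran from 0.70-fold to 1.09-fold. AXIN2, the Wnt-induced relative of AXIN1, lay below the filter, at 5.34, 5.44 and 5.74 on RNF43 siRNA arrays and 5.46, 4.85 and 6.02 on control arrays, and was not tested.

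The kinase genes followed. CSNK1A1 encodes casein kinase 1 alpha, which places the first phosphate on beta-catenin, and was read by 13 probe sets, 12 of them tested. The brightest, 213860_x_at, read 12.40, 12.44 and 12.70 on RNF43 siRNA arrays and 12.59, 12.54 and 12.93 on control arrays, with the array numbered 3 highest in both groups. Its suffix _x_at marks probes that can bind related transcripts, and _s_at marks probes shared by several transcripts. The log2 difference was -0.17 (SE 0.12, adjusted p = 0.366).

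Over the 12 tested CSNK1A1 probe sets, 9 differences were negative and 3 positive, from -0.38 to 0.19, and 0 passed. On 3 probe sets all RNF43 siRNA arrays lay below all control arrays, and on 1, 208866_at, above them, which makes 33.3% of the 12, close to the 33.8% of all tested probe sets. The most negative, 243338_at, averaged 8.08 ± 0.05 on RNF43 siRNA arrays and 8.46 ± 0.19 on control arrays (SD, n = 3 each), a log2 difference of -0.38 with adjusted p = 0.0935. For 206562_s_at the values were 10.77, 10.78 and 10.46 on RNF43 siRNA arrays and 11.03, 11.18 and 10.79 on control arrays, a log2 difference of -0.33 (adjusted p = 0.103) that passed without control siRNA replicate 3 (-0.43, adjusted p = 0.0282), without both arrays numbered 3 (adjusted p = 0.0167) and with array weights (adjusted p = 0.0404). By contrast 208866_at read 9.63, 9.72 and 9.57 on RNF43 siRNA arrays and 9.41, 9.53 and 9.42 on control arrays, a log2 difference of 0.19 (adjusted p = 0.209).

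GSK3A and GSK3B encode the paired kinases that complete the phosphorylation. The brightest GSK3B probe set, 226191_at, read 11.16, 11.17 and 11.11 on RNF43 siRNA arrays and 11.23, 11.17 and 11.25 on control arrays. This measurement had the smallest standard error among the brightest probe sets, with SDs of 0.03 on RNF43 siRNA arrays and 0.04 on control arrays, and an interval of 0.86-fold to 1.06-fold (log2 difference -0.07, SE 0.07, adjusted p = 0.555). A second GSK3B probe set, 209945_s_at, read 10.05, 9.84 and 9.83 on RNF43 siRNA arrays and 10.44, 10.19 and 10.00 on control arrays, a log2 difference of -0.30 (adjusted p = 0.137). It passed without control siRNA replicate 3 (-0.41, adjusted p = 0.0372), without both arrays numbered 3 (adjusted p = 0.0428) and with array weights (adjusted p = 0.0455), while the third tested probe set, 226183_at, differed by 0.04 (adjusted p = 0.882).

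GSK3A, on 632_at, read 8.14, 8.44 and 8.77 on RNF43 siRNA arrays and 8.43, 8.26 and 8.41 on control arrays. The RNF43 siRNA arrays enclosed all control arrays, and the log2 difference of 0.09 (SE 0.16) did not pass (adjusted p = 0.786). The within-array difference between GSK3B and GSK3A averaged 2.70 ± 0.34 on RNF43 siRNA arrays and 2.85 ± 0.05 on control arrays (SD, n = 3 each; exact two-sided permutation p = 0.7). Such differences between probe sets show unequal change, not relative abundance, since probes differ in brightness.

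**Figure D2:**
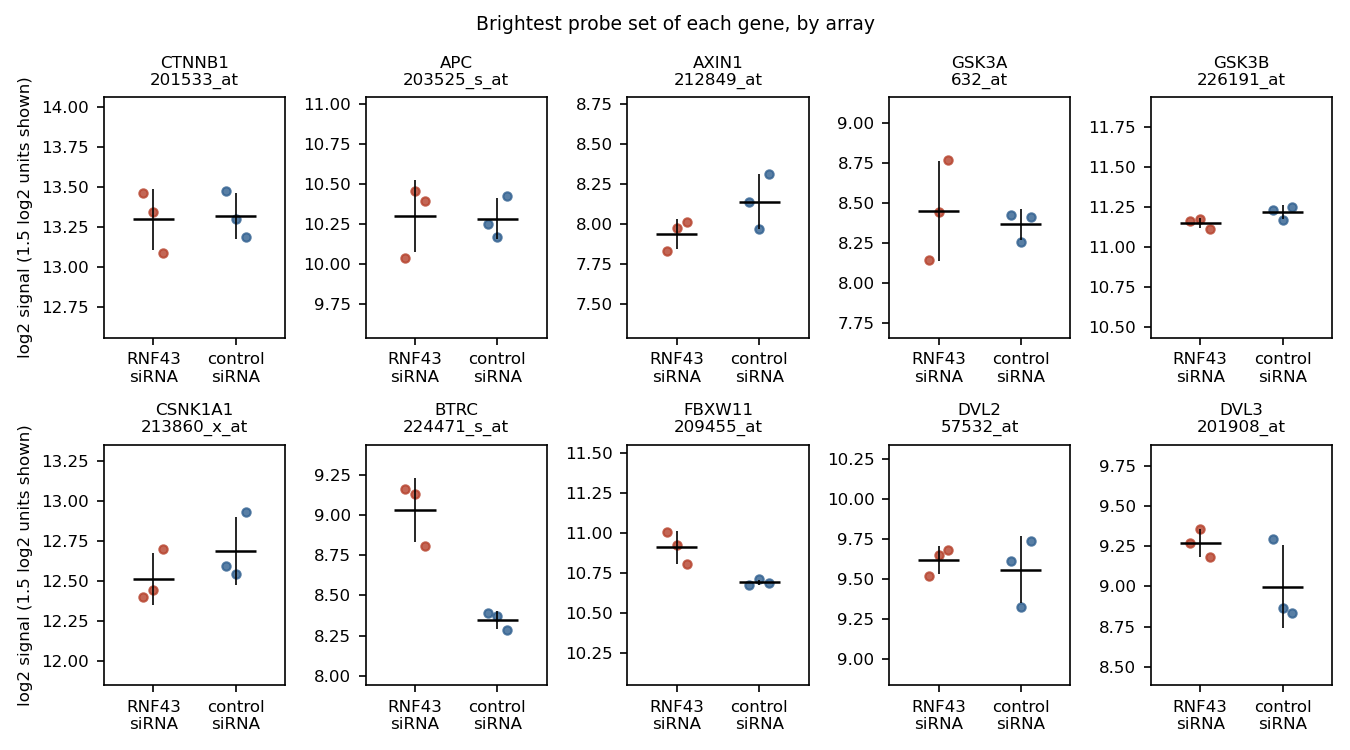
Log2 signal of the brightest probe set of each of the 10 genes on the 3 RNF43 siRNA arrays (left, red) and the 3 control arrays (right, blue), with points in replicate order, the mean (bar) and SD (line), on axes that all span 1.5 log2 units. Group means differ by 0.69 for BTRC and 0.22 for FBXW11, whose groups do not overlap, and the groups of the other 8 genes overlap.

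The brightest probe sets of the F-box genes, BTRC and FBXW11, stood apart between the groups. These were 2 of the 10 brightest, a smaller share than the 38.9% of all 11853 genes. BTRC 224471_s_at read 9.17, 9.13 and 8.81 on RNF43 siRNA arrays, against 8.39, 8.37 and 8.28 on control arrays. The lowest RNF43 siRNA array, replicate 3, still lay above the highest control array. This was a rise of 1.61-fold with an interval of 1.32-fold to 1.96-fold (log2 difference 0.69, SE 0.13, adjusted p = 0.00732). Without any 1 array the difference stayed between 0.62 and 0.80, and over the 17 alternatives that read this probe set by itself adjusted p was 0.00198 to 0.0405.

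The other BTRC probe sets did not show this rise. On 204901_at the values were 7.44, 7.60 and 7.70 on RNF43 siRNA arrays and 7.56, 7.68 and 7.57 on control arrays (log2 difference -0.03, SE 0.15, adjusted p = 0.926), with an interval up to 1.24-fold. On 216091_s_at they were 6.98, 7.09 and 7.44 on RNF43 siRNA arrays and 7.34, 7.76 and 7.15 on control arrays (log2 difference -0.25, SE 0.22, adjusted p = 0.501), with an interval up to 1.18-fold. Both upper bounds lay below the lower bound of 1.32-fold for the brightest probe set.

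The excess of 224471_s_at over 204901_at within an array was 1.73, 1.54 and 1.11 log2 units on RNF43 siRNA arrays and 0.83, 0.69 and 0.71 on control arrays, so the groups did not overlap. The same held for its excess over 216091_s_at, at 2.19, 2.04 and 1.37 on RNF43 siRNA arrays and 1.05, 0.61 and 1.14 on control arrays. Each had an exact two-sided permutation p of 0.1, the smallest possible, and adjusted p = 0.5 over the 25 within-array comparisons made, so no adjusted value could pass. The groups stood apart in 5 of these 25. Among them were FBXW11 209455_at against 209456_s_at (change 0.34) and CSNK1A1 213860_x_at against 1556006_s_at (change -0.20). For any 1 comparison, a share of 0.1 of the 20 possible splits of the arrays stands apart. No share over all pairs of probe sets was computed, and many of the 25 comparisons shared a probe set, so the count is descriptive. The mean of the 3 tested BTRC probe sets gave a log2 difference of 0.14 (adjusted p = 0.462), and the mean of all 5, which adds 2 probe sets below the filter, gave -0.31 (adjusted p = 0.598). Those 2 were 222374_at, at 5.75, 4.40 and 2.15 on RNF43 siRNA arrays and 5.48, 5.99 and 5.64 on control arrays, and 1563620_at, at 1.43, 3.86 and 0 on RNF43 siRNA arrays and 2.60, 1.61 and 2.20 on control arrays. The change in BTRC thus rests on 1 of its probe sets, and which transcripts that probe set reads was not analysed here.

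FBXW11 encodes the close relative of the BTRC protein. Its brightest probe set, 209455_at, read 11.01, 10.92 and 10.80 on RNF43 siRNA arrays and 10.67, 10.71 and 10.69 on control arrays, again without overlap. The log2 difference of 0.22 (SE 0.08, 1.17-fold) did not pass (adjusted p = 0.0898), but did with both arrays numbered 3 left out (adjusted p = 0.0311) and with array weights (adjusted p = 0.0376). The other probe set, 209456_s_at, read 6.91, 7.27 and 7.25 on RNF43 siRNA arrays and 7.26, 7.26 and 7.27 on control arrays, a log2 difference of -0.12 (adjusted p = 0.71). Within arrays, BTRC relative to FBXW11 on the brightest probe sets was -1.88 ± 0.11 on RNF43 siRNA arrays and -2.34 ± 0.06 on control arrays (SD, n = 3 each), a change of 0.47 with exact two-sided permutation p = 0.1, the smallest possible (adjusted p = 0.5). For both F-box genes the probe set that separated the groups was the brightest.

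**Figure D3:**
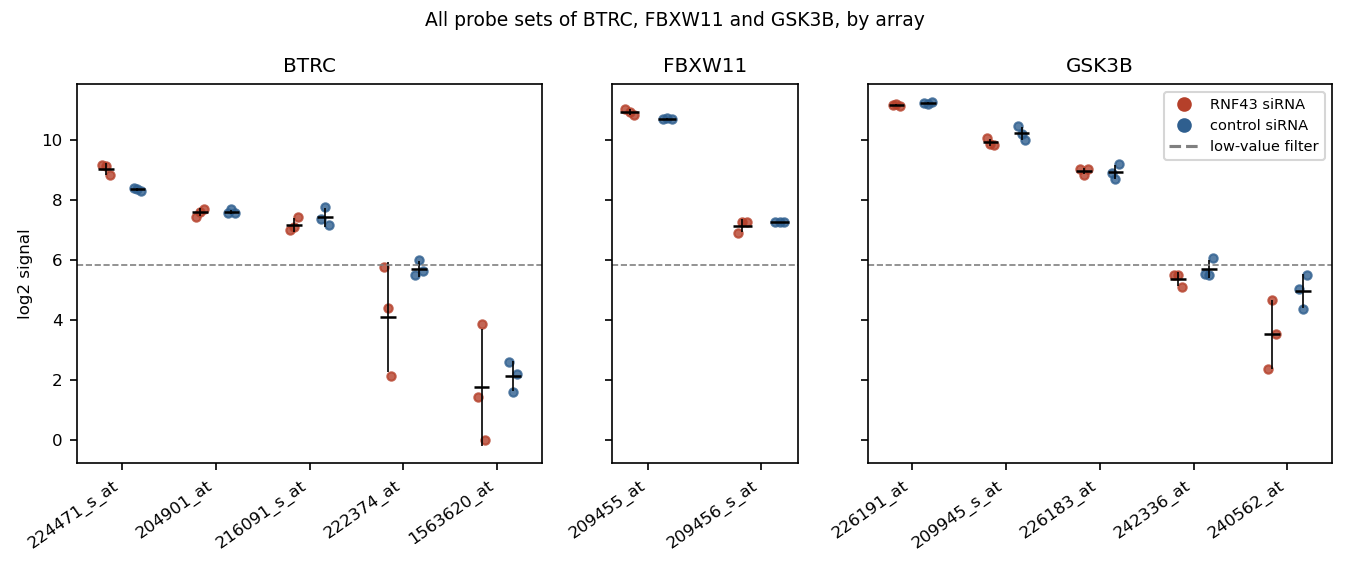
Log2 signal of every probe set of BTRC, FBXW11 and GSK3B, brightest at the left, on RNF43 siRNA arrays (red, left of each pair) and control arrays (blue), with points in replicate order, means (bars), SDs (lines) and the low-value filter of 5.83 (dashed). BTRC 224471_s_at and FBXW11 209455_at separate the groups above the filter, and GSK3B 242336_at below it; the other probe sets shown overlap.

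DVL2 and DVL3 encode Dishevelled proteins, which pass the Wnt signal from the receptor to axin. DVL2 57532_at read 9.52, 9.65 and 9.69 on RNF43 siRNA arrays and 9.62, 9.33 and 9.74 on control arrays (log2 difference 0.06, SE 0.12, adjusted p = 0.792). Its second probe set, 218759_at, read 7.32, 7.29 and 7.35 on RNF43 siRNA arrays and 7.22, 7.14 and 6.93 on control arrays. There all RNF43 siRNA arrays lay above all control arrays, although the log2 difference of 0.23 (SE 0.17) did not pass (adjusted p = 0.432).

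DVL3 201908_at read 9.27, 9.36 and 9.18 on RNF43 siRNA arrays and 9.30, 8.87 and 8.84 on control arrays. Control replicate 1 lay among the RNF43 siRNA arrays and the other control arrays below them, and the log2 difference of 0.27 (SE 0.14, adjusted p = 0.228) did not pass. Its upper bound, 1.49-fold, was the interval end farthest from no change among the 9 brightest probe sets that did not pass. The third Dishevelled gene, DVL1, differed by 0.27 on its brightest probe set (adjusted p = 0.235).

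The 8 probe sets below the filter belonged to APC (1), GSK3A (1), GSK3B (2), CSNK1A1 (1), BTRC (2) and DVL3 (1), and were not tested. Their means over the 6 arrays were 1.95 to 5.67, and their SDs within a group reached 2.08. Of these 8, 1 did not overlap between the groups. It was GSK3B 242336_at, at 5.50, 5.50 and 5.09 on RNF43 siRNA arrays and 5.54, 5.51 and 6.05 on control arrays. The share without overlap was 33.8% among probe sets above the filter, and was not computed for those below it.

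Other genes of the pathway were read by their brightest probe sets, in 4 lists written with earlier results of these data known. Among all 11853 genes tested in this way, with p-values adjusted over all probe sets, 19.2% changed, 9.77% higher and 9.42% lower, and the median log2 difference was -0.00. Of 38 further subunits and regulators of the complex, 36 were named by a probe set and 30 tested; 2 rose, 2 fell and 26 did not pass, with a median log2 difference of 0.07. PPP2R1B, a scaffold subunit of the phosphatase PP2A, read 10.78, 10.97 and 10.75 on RNF43 siRNA arrays and 9.60, 9.53 and 9.59 on control arrays, a rise of 1.26 log2 units (SE 0.09, adjusted p = 5.75e-05). Its 3 other tested probe sets did not pass, with differences of 0.11 to 0.18, and the mean of its probe sets differed by 0.23 (adjusted p = 0.411). MACF1, a cytoskeletal linker that binds axin, rose by 0.38 log2 units (adjusted p = 0.00895) on its brightest of 6 tested probe sets, and 1 of the others also rose; the mean of its probe sets differed by -0.033 (adjusted p = 0.906), and the call was also lost with no intensity trend (adjusted p = 0.0526). CSNK1G1, a membrane-bound casein kinase 1, fell by 0.48 log2 units (adjusted p = 0.00767), and its 2 other tested probe sets, at -0.62 and -0.51, did not pass. PPP2R5C, a regulatory subunit of PP2A, fell by 0.36 log2 units (adjusted p = 0.0384), a call lost on leaving out any 1 array other than control siRNA replicate 3 (adjusted p = 0.0562 to 0.139), with no filter, with centred arrays, with no intensity trend and with its probe sets averaged (adjusted p = 0.0615 to 0.115).

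A further 10 genes of cell junctions were grouped as junction partners of beta-catenin, whether or not their proteins bind it. Of these, 9 were named by a probe set and 8 tested. Among the tested genes 2 rose, 1 fell and 5 did not pass, with a median log2 difference of 0.14. PKP4, an armadillo-repeat protein of junctions, read 9.81, 9.90 and 9.92 on RNF43 siRNA arrays and 9.04, 8.98 and 8.72 on control arrays, a rise of 0.96 log2 units (adjusted p = 6.48e-04), and 1 of its 4 other tested probe sets also rose. JUP, which encodes plakoglobin, the closest relative of beta-catenin, rose by 0.36 log2 units (adjusted p = 0.0122), a call lost without RNF43 siRNA replicate 2 (adjusted p = 0.0577) or control siRNA replicate 2 (adjusted p = 0.058), and with no intensity trend (adjusted p = 0.0607). AFDN, the afadin gene, fell by 0.48 log2 units (adjusted p = 0.0111; 0.0509 without RNF43 siRNA replicate 2). The epithelial cadherin gene CDH1 lay below the filter on its brightest probe set, whereas CDH2, the neural cadherin gene, read 11.62, 11.79 and 11.56 on RNF43 siRNA arrays and 11.72, 11.73 and 11.65 on control arrays.

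Of 21 nuclear partners of beta-catenin, 20 were named by a probe set and 19 tested; 0 rose, 1 fell and 18 did not pass, with a median log2 difference of -0.16. The member that fell was CBY1, which encodes an inhibitor that binds beta-catenin, by 0.49 log2 units (adjusted p = 0.0389). This call was lost on leaving out replicate 1 or 2 of either group (adjusted p = 0.0778 to 0.138), with no filter, with centred arrays and with no intensity trend (adjusted p = 0.0605 to 0.0791). Of 23 genes known as Wnt/beta-catenin targets in one tissue or another, 21 were named by a probe set and 13 tested; 5 rose, 0 fell and 8 did not pass, with a median log2 difference of 0.39. The genes that rose were RNF43 itself, the cyclin gene CCND1 (0.93, adjusted p = 3.40e-04), the differentiation inhibitor ID2 (0.74, adjusted p = 0.00225), the Wnt antagonist DKK1 (0.39, adjusted p = 0.00548) and GLUL, glutamine synthetase (0.45, adjusted p = 0.00778). CCND1 read 11.59, 11.76 and 11.64 on RNF43 siRNA arrays and 10.81, 10.55 and 10.84 on control arrays, without overlap. Its other tested probe set and both others of GLUL did not pass, and that of ID2 did. Averaged over all its probe sets, CCND1 differed by 0.61 (adjusted p = 0.0506) and GLUL by 0.16 (adjusted p = 0.656), and neither passed. At an unadjusted p under 0.05, 10 of the 30 regulators (6 higher), 4 of the 8 junction partners (3 higher), 3 of the 19 nuclear partners (0 higher) and 7 of the 13 targets (7 higher) passed, where 33.6% of all genes did in either direction. Of all 11853 genes, 1999 passed in this way and were higher on RNF43 siRNA arrays. AXIN2, NKD1, LGR5 and SP5, feedback genes of the pathway in many tissues, lay below the filter. The summed linear signal of the fibroblast or stellate markers given above moved in the opposite direction to this list, and its part was not tested.

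**Figure D4:**
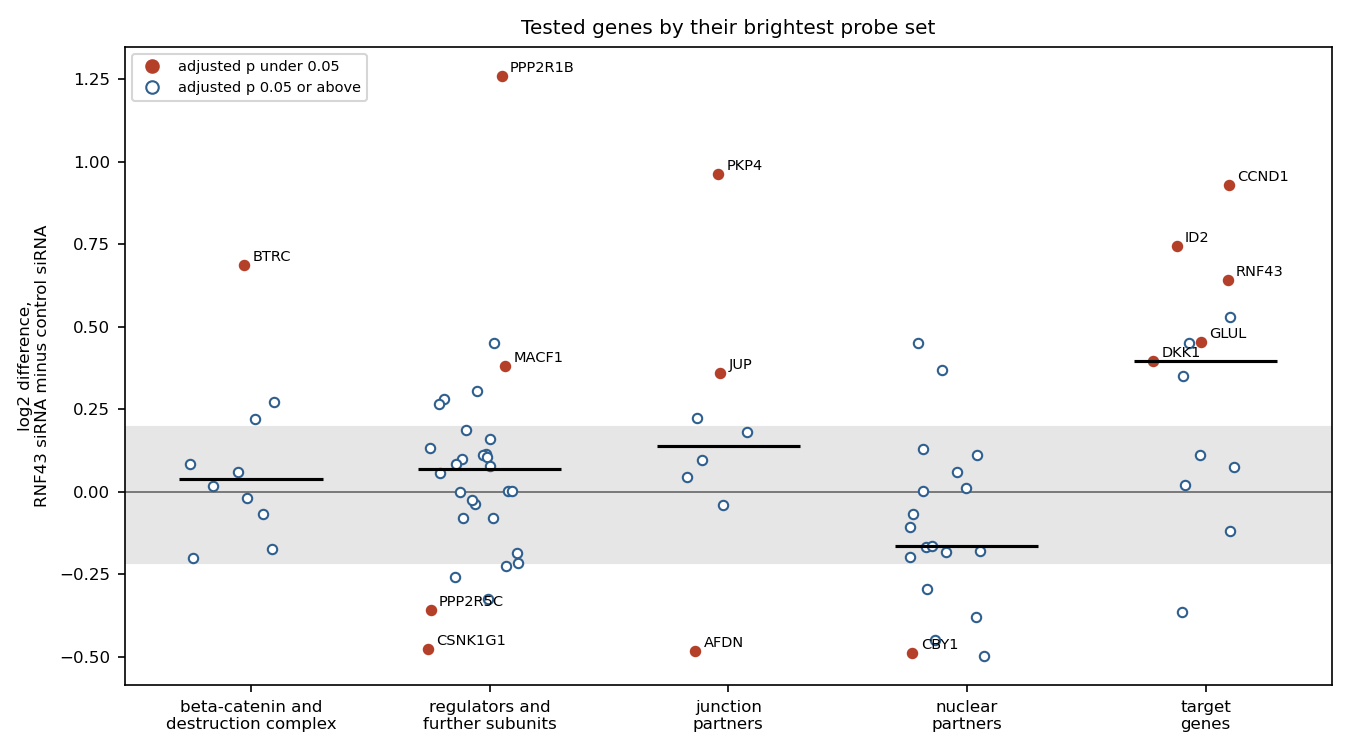
Log2 differences (RNF43 siRNA minus control siRNA, vertical axis) of tested genes by their brightest probe sets, with a column for the 10 genes followed here and for each of 4 pathway lists; horizontal bars are medians, filled points passed at an adjusted p under 0.05, and the grey band holds the middle 50% of all tested probe sets. BTRC is the filled point among the 10 genes, against 4 filled points among 30 regulators, 3 among 8 junction partners, 1 among 19 nuclear partners and 5 among 13 targets; sideways position within a column has no meaning.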

How the data were processed

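The deposited values are log2 signals of 6 arrays, 3 per group by the sample titles. The submitters' processing notes name MAS5, which sets matched against mismatched probes and brings arrays to a common mean; for its settings, none is given in the sources used here. Base 2 was inferred because it gives near-equal trimmed linear means, 497.03 to 497.23. Array medians were 5.89 to 6.02, and 391 to 628 values per array sat at 0, so dim values are noisy. The number of arrays limits the precision. Probe sets were named by the platform annotation, with gene IDs used to update them to RefSeq symbols of GRCh38.p14, which served for names alone; 41091 probe sets named 1 gene, 1801 several and 11721 none.

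Probe sets with a mean in the upper 50% (above 5.83) were tested with limma 3.58.1 in R 4.3.3 (two-sided; lmFit, then eBayes with a trend on intensity), and p-values were adjusted by Benjamini-Hochberg over all 27306, with a threshold of 0.05. No further normalization was applied, and intervals are 95% and unadjusted. Differences within arrays were tested by exact permutation. The steps were tested on simulated data. The text gives the probe sets of the 10 genes by value or in ranges and counts, RNF43, and up to 4 genes with the smallest p among those called in each list. The members and lists were chosen with earlier results of these data known; marker genes, AXIN2, DVL1, CDH1, CDH2, NKD1, LGR5 and SP5 were named after their values were seen. Alternatives covered filters, scaling, added signal, variance models, array weights, a replicate block, other readings of a gene, thresholds and leaving out arrays.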

Additional observations from a re-analysis of the deposited data

How the results depend on the processing

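The count of 1 higher probe set among the 10 genes became 2 with array weights, with a replicate block, with both arrays numbered 3 left out and at an adjusted p under 0.1, in each case by adding FBXW11 209455_at, and 0 without probe sets ending in _x_at or _s_at, which removes BTRC 224471_s_at. The count of 0 lower probe sets became 2 with array weights and with both arrays numbered 3 left out (GSK3B 209945_s_at and CSNK1A1 206562_s_at), 3 with the replicate block (these and CSNK1A1 213860_x_at) and 1 (CSNK1A1 243338_at) at an adjusted p under 0.1. Without any 1 array the counts were 1 to 1 higher and 0 to 2 lower, with the 2 lower without control siRNA replicate 3. Over the 32 tested probe sets, 27 kept their side of the threshold and called direction in every alternative at the threshold of 0.05 that read them, and the sign of 12 turned in at least 1. Averaging every probe set of a gene turned BTRC to -0.31, MACF1 to -0.033, CTNNB1 to 0.013 and APC to -0.060, and moved GSK3B to -0.42 (adjusted p = 0.114), with only the BTRC and MACF1 calls affected among these. RNF43 gave 0.55 to 0.72 without any 1 array and 0.48, no longer past the threshold, without both arrays numbered 3. The count of all features called was 4219, and 1587 to 6370 over the alternatives, with 6370 under the replicate block, 2787 with no intensity trend, 2684 and 1587 with 1 value per gene (the brightest probe set or the mean of all), 2491 without probe sets ending in _x_at or _s_at, 1764 at an adjusted p under 0.01, and 2782, 2238, 2347 and 2293 without RNF43 siRNA replicate 1, RNF43 siRNA replicate 2, control siRNA replicate 1 and control siRNA replicate 2. Averaging only probe sets above the filter, chosen after the data were seen, called 2408 of 11853 genes and 0 of the 10 genes. Of the 12 other pathway genes named, 4 kept their call in every alternative. Over all alternatives the regulators had 0 to 5 higher and 1 to 3 lower, the junction partners 1 to 3 and 0 to 1, the nuclear partners 0 and 0 to 2, and the targets 3 to 5 and 0. The causes of these shifts were not tested.

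Deviations from the group means correlated at 0.19, 0.078 and 0.31 between arrays of the same number, and 5 of 6 arrays correlated best with their own number, but not every pair reached 0.1 and the labels tie the numbers to nothing shared. The replicate block, with BTRC 224471_s_at at 0.69 (adjusted p = 0.00204), is therefore given in this section only. Under it CSNK1A1 206562_s_at (limma adjusted p = 0.00466) and 213860_x_at (adjusted p = 0.0406) also passed. So did GSK3B 209945_s_at (adjusted p = 0.0186) and FBXW11 209455_at (adjusted p = 0.0398).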
